A study of Mus musculus with 18 samples.

Results

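The autophagy and lysosome regulators examined here are 40 genes that build, load and empty the autophagosome, taken by gene symbol and matched to their Entrez rows in tables of 28096 genes. They cover the ULK initiation complex (5 genes), the class III PI3-kinase complexes (6), membrane supply by ATG9, ATG2 and WIPI proteins (5), the ubiquitin-like conjugation machinery (7), the ATG4 proteases (4), the ATG8 family (5), cargo receptors (4), and a last group of 4 made of the transcription factors Tfeb and Tfe3 and the lysosomal membrane proteins Lamp1 and Lamp2. All 40 passed the filter on low counts that left 14161 genes for testing.

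RNASeq was performed on B cells isolated from the spleens of C57BL/6 N mice, aged 8 weeks or more, that were either wild type (WT) or lacked the ubiquitin-binding chaperone ubiquilin-1 (Ubqln1-/-) in every tissue, through deletion of exon 2 of Ubqln1. For 4 hr, cells of each genotype either rested in medium, received anti-IgM F(ab)2, which crosslinks the B cell receptor, at 10 μg/mL, or received E. coli K12 LPS, which is sensed by TLR4, at 20 μg/mL. The 18 libraries comprise 3 for each of 6 groups, and the culture wells behind a library were pooled before RNA was purified. Comparisons with resting cells ask how each stimulus changed the mRNAs of the autophagy machinery, LPS against anti-IgM asks whether the stimuli differed, and Ubqln1-/- against WT asks whether these mRNAs depended on ubiquilin-1.

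Autophagy encloses cytoplasm in a double membrane that fuses with the lysosome, where the content is degraded. The ULK kinase complex starts the process, the class III PI3-kinase marks the membrane with a phosphoinositide, and a pair of ubiquitin-like conjugation reactions attaches ATG8 proteins to lipid, where cargo receptors bind them. TFEB and TFE3 are related transcription factors that switch on lysosomal and autophagy genes when mTORC1 activity is low, and autophagy supports the survival and antibody secretion of activated B cells.

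The libraries held between 15368941 and 41072854 counts over genes, with a median of 23257531, and every WT library with LPS was deeper than every Ubqln1-/- library with LPS. Levels are given as CPM, counts divided by the TMM-scaled library size and put on the usual CPM scale, and levels of different genes are compared only as RPKM, CPM per kilobase of gene width. Ubqln1 itself lay at 230 to 339 CPM in the WT libraries and at 91.4 to 128 CPM in the Ubqln1-/- libraries, in counts over the whole gene that hold no value for exon 2 alone. The summed level of 8 B cell markers lay between 7531 and 9056 CPM in resting WT cells, 2890 and 3621 CPM with anti-IgM and 5934 and 7012 CPM with LPS. That of 7 of 8 T cell markers lay between 1.66 and 6.34 CPM in all libraries. That of 11 of 12 macrophage and monocyte markers, led by Adgre1, lay between 28.9 and 53.9 CPM in the resting libraries and 15.6 and 24.8 CPM in the stimulated ones, and no marker was at 0 in every library. The sum of 6 dendritic cell markers was 14.1 to 23.7 CPM at rest and 42.2 to 73.0 CPM with LPS. In WT means, Zbtb46 (4.78 to 35.2 CPM) and Flt3 (8.83 to 21.5 CPM) carried that rise. Itgax fell from 3.97 to 2.46 CPM, and Clec9a, Siglech and Xcr1 stayed at 1.41 CPM or less. The 6 plasma cell markers summed to 650 to 1006 CPM at rest, 1944 to 2498 with anti-IgM and 1544 to 1794 with LPS. Irf4 carried that rise, with WT means of 408, 1927 and 1430 CPM. Sdc1, Prdm1, Jchain and Tnfrsf17 were lower with each stimulus, and Xbp1 was higher only with anti-IgM. The part of these markers in the changes of the members was not tested. In bulk RNA, fewer cells of a type and less RNA per cell cannot be told apart. A fold change below is called when its Benjamini-Hochberg adjusted p from edgeR over all 14161 genes was under 0.05.

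Among the promoters, windows from 250 bases before to 50 bases after the RefSeq start site on GRCm38.p6 were given for 34 of the 40 members, 41 windows in all, and not for Rb1cc1, Becn1, Pik3c3, Atg12, Atg16l1 and Map1lc3a. They were searched for CACGTG, the E-box that TFEB and TFE3 share with MYC, MAX and USF proteins, which reads the same on both strands. A window with it was present for 6 of 34 members (17.6%), Atg14, Atg3, Atg5, Atg7, Lamp1 and Rubcn, against 8.09% of the 27025 genes with a window and 11.8% of the 10067 of them that were tested. Rubcn has another window, chr16:32877680-32877979, which held 0 copies. The windows with an E-box of Atg7, Atg14 and Rubcn lie inside the longer GENCODE gene and not at its 5′ end. How often this holds over all genes was not counted. With a T before or an A after it, the hexamer was there for 5 members (14.7%) against 7.0% of the genes tested. The Lamp1, Atg3 and Rubcn promoters are printed because Lamp1 held 4 copies, Atg3 alone among the members had a copy with both flanking bases, and Rubcn changed the most between the stimuli. Capitals mark the E-box, each sequence runs 5′ to 3′ on the strand of the gene, and no GENCODE exon overlaps any of them.
Lamp1, chr8:13159080-13159160, plus strand, before the gene: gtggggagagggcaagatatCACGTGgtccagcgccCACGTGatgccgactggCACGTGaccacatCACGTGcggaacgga
Atg3, chr16:45158715-45158783, plus strand, before the gene: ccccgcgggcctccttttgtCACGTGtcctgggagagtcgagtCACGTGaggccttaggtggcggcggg
Rubcn, chr16:32868429-32868474, minus strand, in an intron of the longer GENCODE gene: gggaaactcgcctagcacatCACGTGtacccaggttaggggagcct

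The 4 copies at Lamp1 start 61, 45, 28 and 15 bases before its start site. Those at Atg3 start 94 and 71 bases before, and that at Rubcn 88 bases before. The members with an E-box moved in different directions: Lamp1 rose with anti-IgM, Atg3 rose with both stimuli, and Rubcn and Atg14 fell with both. A match is only a description of the letters in the window.

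The members covered a wide range of levels. Averaged over the 18 libraries, the cargo receptor Sqstm1 (p62) was highest at 214 RPKM, followed by Gabarap at 152 RPKM and Lamp1 at 114 RPKM, and 32 of 40 members averaged at least 10 RPKM. At the other end, Atg4a averaged 0.405 RPKM, Wipi1 0.589 RPKM and Atg10 1.49 RPKM. Wipi1 rested on 7 to 44 counts per library and Atg4a on 11 to 31, so that their fold changes were the least precise. For Atg4a, 51.2% of the 50-base words of its transcripts also occur in other annotated genes, chiefly the pseudogene Atg4a-ps, and its counts are uncertain. Words also found in other annotated genes, neighbours, pseudogenes or others, made up 36.8% for Becn1, 30.5% for Atg9a, 23.1% for Gabarapl1, 17.4% for Uvrag, 15.5% for Sqstm1, 14.6% for Atg4d and 12.2% for Gabarapl2. How the authors' counting assigned such reads is not stated.

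With anti-IgM, 10 of 40 members rose and 20 fell in WT cells, beside 32.4% and 32.2% of all genes tested, and 10 rose and 21 fell in Ubqln1-/- cells, beside 32.9% and 32.4%. The share of members that rose was thus below that of all genes and the share that fell above it. The median log2 fold change of the members was -0.17 in WT and -0.20 in Ubqln1-/- cells, against -0.0096 and -0.0175 over all genes. With LPS, 8 members rose and 19 fell in WT cells, beside 31.2% and 30.1% of all genes, and 8 rose and 21 fell in Ubqln1-/- cells, beside 30.6% and 30.2%. The member medians with LPS were -0.22 and -0.19. These fits held no term for the replicate number. With that number as a block, 34 and 32 members were called with anti-IgM in WT and Ubqln1-/- cells, beside 9905 and 10010 of all genes. With LPS the block gave 30 and 33 members, beside 9625 and 9480 of all genes. Since anti-IgM and LPS are compared with the same resting libraries, their values are set side by side here, and the direct contrast is given further on.

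In both genotypes, 6 members rose with each stimulus (Becn1, Atg2b, Atg3, Gabarapl1, Optn and Tfe3) and 15 fell with each (Ulk2, Atg13, Rb1cc1, Pik3r4, Atg14, Rubcn, Atg9a, Wipi2, Atg10, Atg16l2, Map1lc3a, Gabarapl2, Nbr1, Calcoco1 and Tfeb). No member was called up by 1 stimulus and down by the other. The share of all genes with each of these patterns was not counted, so the counts only list the members. Ulk1, Atg4a and Atg4c were not called with either stimulus, although with the replicate number as a block Ulk1 passed in WT cells with anti-IgM (log2 -0.10, adjusted p = 0.0475) and in Ubqln1-/- cells with LPS (0.11, adjusted p = 0.0365). Most changes were under 2-fold, as they were over all genes. At 2-fold or more, Rubcn, Wipi1, Atg10, Gabarapl1 and Tfeb were called with anti-IgM in each genotype. Optn was called so with LPS in each genotype, and Calcoco1 with LPS in WT cells. Of all 14161 genes, 2921 and 2874 were called past that size with anti-IgM in WT and Ubqln1-/- cells, and 2234 and 2257 with LPS. In WT cells the members' median absolute log2 fold change was 0.429 with anti-IgM and 0.377 with LPS, beside 0.474 and 0.418 over all genes.

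**Figure D1:**
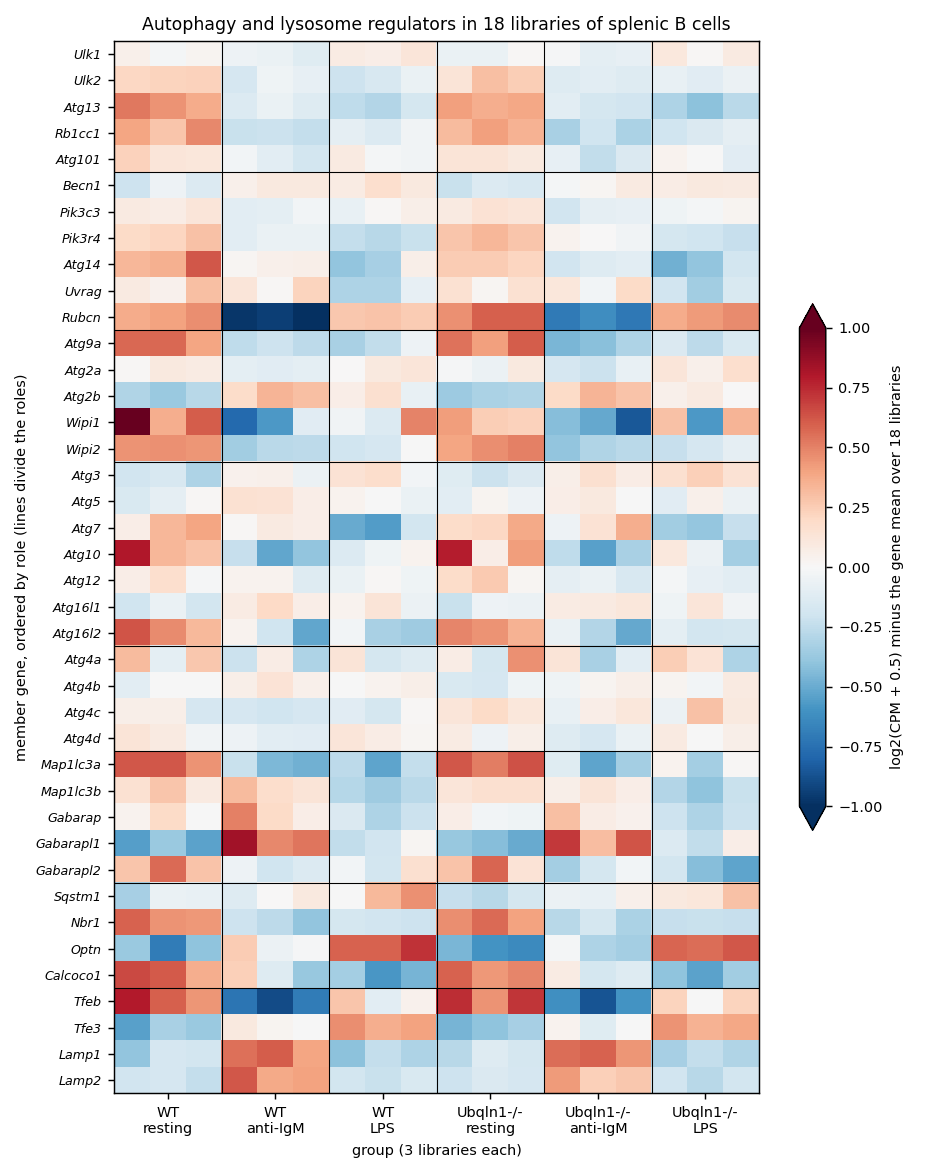
Heatmap of log2(CPM + 0.5) of the 40 members (rows, ordered by role) in 18 libraries (columns, 3 per group), each row centred on its mean over the libraries; colors are cut at -1 and 1. Rubcn and Tfeb are lowest in the 6 libraries with anti-IgM, Gabarapl1, Lamp1 and Lamp2 are highest in the same libraries, and Optn and Tfe3 are highest in the 6 libraries with LPS.

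The lysosomal regulators Tfeb and Tfe3 moved in opposite directions. In WT cells Tfeb stood at 124, 108 and 96.9 CPM at rest, at 42.8, 38.1 and 43.6 CPM with anti-IgM and at 86.6, 66.3 and 73.5 CPM with LPS. In Ubqln1-/- cells it stood at 119, 97.6 and 117 CPM at rest, 46.3, 39.0 and 46.8 CPM with anti-IgM and 83.3, 70.9 and 83.1 CPM with LPS. All libraries of each stimulus lay below all resting libraries of their genotype, those with anti-IgM the lowest. Tfeb fell 2.64-fold with anti-IgM in WT cells (log2 fold change -1.40 ± 0.12 SE, n = 3 against 3, adjusted p = 2.66e-08) and 2.52-fold in Ubqln1-/- cells (adjusted p = 4.26e-08). With LPS it fell 1.45-fold (adjusted p = 0.000582) and 1.41-fold (adjusted p = 0.00137).

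Tfe3, the paralog of Tfeb, was at 58.0, 67.7 and 65.5 CPM in resting WT cells, at 90.7, 86.3 and 84.5 CPM with anti-IgM and at 117, 109 and 112 CPM with LPS. It rose in every library with a stimulus, by 1.37-fold with anti-IgM (log2 0.45 ± 0.06, adjusted p = 8.73e-06) and 1.77-fold with LPS (log2 0.82 ± 0.06, adjusted p = 2.14e-08). In Ubqln1-/- cells the corresponding rises were 1.30-fold and 1.74-fold. As a share of the summed RPKM of both genes, Tfeb made up 66.4% ± 4.21 (SD, n = 3) in resting WT cells, 35.5% ± 1.79 with anti-IgM and 43.5% ± 2.46 with LPS, and 66.6% ± 2.70, 38.0% ± 1.18 and 45.0% ± 1.69 in Ubqln1-/- cells. The order of the 2 mRNAs was thus reversed in each stimulated group, while their sum was 58.3 ± 3.68 RPKM at rest, 41.3 ± 1.51 with anti-IgM and 61.2 ± 4.85 with LPS in WT cells.

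Lamp1 and Lamp2 encode the most abundant glycoproteins of the lysosomal membrane and rose with anti-IgM. Lamp1 was at 189, 221 and 219 CPM in resting WT cells, at 364, 379 and 326 CPM with anti-IgM and at 187, 211 and 200 CPM with LPS. The rise of 1.70-fold with anti-IgM (log2 0.77 ± 0.075, adjusted p = 1.49e-07) separated all 3 libraries from those at rest, whereas the LPS libraries overlapped the resting ones (log2 -0.07 ± 0.075, adjusted p = 0.416). Lamp2 gave 108, 110 and 105 CPM at rest, 191, 161 and 164 CPM with anti-IgM and 109, 106 and 111 CPM with LPS in WT cells, a rise of 1.59-fold with anti-IgM (adjusted p = 1.11e-07) and a difference of 0.01 ± 0.06 on the log2 scale with LPS (adjusted p = 0.900). In Ubqln1-/- cells, Lamp1 rose 1.65-fold and Lamp2 1.40-fold with anti-IgM, and neither was called with LPS.

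**Figure D2:**
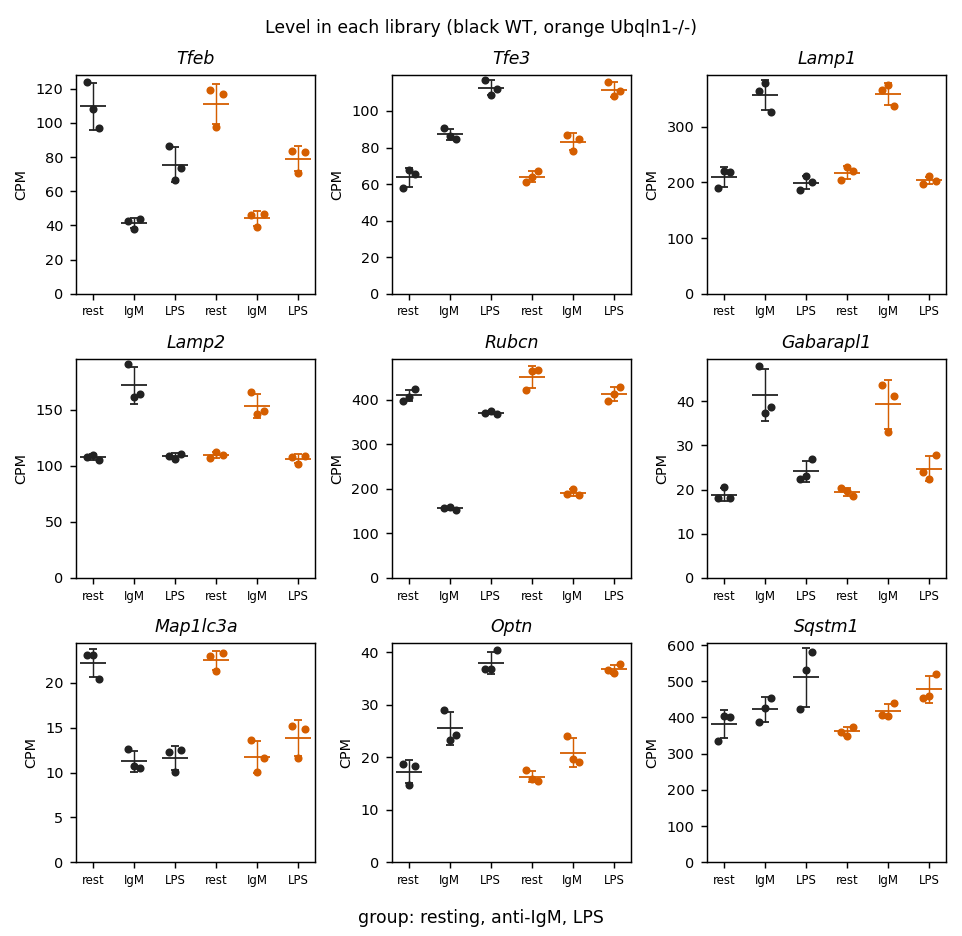
CPM (vertical axis, from 0) of 9 members in each library; each point is 1 library, the bar is the mean of 3 and the error bar the SD, with WT in black, Ubqln1-/- in orange and rest, IgM and LPS standing for resting, anti-IgM and LPS. Rubcn lies between 153 and 200 CPM in all libraries with anti-IgM and between 367 and 466 CPM in all others, and Lamp1 lies above 320 CPM only with anti-IgM.

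Of the ULK complex, the kinase that initiates autophagy, 4 of 5 members fell with anti-IgM and 3 of 5 with LPS in each genotype. Over all genes, 32.2% and 32.4% fell with anti-IgM in WT and Ubqln1-/- cells, and 30.1% and 30.2% with LPS. Rb1cc1 (FIP200), the scaffold, was at 122, 112 and 129 CPM at rest, 79.1, 79.4 and 78.2 CPM with anti-IgM and 86.8, 84.0 and 90.1 CPM with LPS in WT cells. Atg13, which links the kinase to the scaffold, fell from 87.1, 82.3 and 77.9 CPM to 54.9, 57.5 and 55.2 CPM with anti-IgM and to 50.5, 49.2 and 53.4 CPM with LPS. Neither gene overlapped between resting and stimulated libraries. The WT log2 fold changes with anti-IgM and LPS were -0.62 ± 0.06 and -0.48 ± 0.06 for Rb1cc1 and -0.56 ± 0.05 and -0.69 ± 0.06 for Atg13, with adjusted p between 3.15e-08 and 1.94e-06. The kinase Ulk2 fell by 0.32 and 0.36 on the log2 scale, Atg101 fell by 0.26 with anti-IgM and was not called with LPS (adjusted p = 0.0646, or 0.0192 with the replicate block, and 0.0667 and 0.0229 in Ubqln1-/- cells), and the kinase Ulk1 held between 63.3 and 75.1 CPM in all 18 libraries.

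Rubcn encodes Rubicon, an inhibitor of the class III PI3-kinase and of autophagosome maturation that also takes part in LC3-associated phagocytosis, and with anti-IgM it changed the most of its group. In WT cells it was at 398, 407 and 424 CPM at rest, at 157, 160 and 153 CPM with anti-IgM and at 371, 375 and 367 CPM with LPS. In Ubqln1-/- cells it was at 423, 465 and 466 CPM, at 188, 200 and 187 CPM and at 398, 414 and 428 CPM. The libraries with anti-IgM formed a separate low group in each genotype. Rubcn fell 2.62-fold with anti-IgM in WT cells (log2 -1.39 ± 0.05, adjusted p = 1.75e-11) and 2.36-fold in Ubqln1-/- cells (adjusted p = 6.11e-11), the smallest adjusted p of any member. With LPS the fall was 1.11-fold (adjusted p = 0.0234) and 1.09-fold (adjusted p = 0.0468).

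The other subunits of the same kinase changed less than Rubcn with anti-IgM, and all but Pik3c3 changed more with LPS in WT cells. Becn1 (Beclin 1), the core subunit, rose 1.16-fold with anti-IgM and 1.18-fold with LPS in WT cells, from 159, 177 and 167 CPM at rest to 190, 196 and 196 CPM and to 194, 206 and 196 CPM. Atg14, the subunit that directs the complex to autophagosome formation, fell 1.33-fold with anti-IgM (adjusted p = 0.00430) and 1.60-fold with LPS (adjusted p = 6.96e-05), and the regulatory subunit Pik3r4 fell 1.24-fold and 1.39-fold. The catalytic subunit Pik3c3 (VPS34) fell 1.13-fold with anti-IgM and was not called with LPS in WT cells (adjusted p = 0.0869, or 0.0352 with the replicate block). Uvrag, which replaces Atg14 in the complex of the endosomal pathway, was at 140, 135 and 162 CPM at rest and 143, 132 and 153 CPM with anti-IgM (adjusted p = 0.814), and fell 1.30-fold with LPS (adjusted p = 0.00121).

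In membrane supply, the lipid transfer protein gene Atg2b rose and the others fell or were not called. Atg2b was at 127, 121 and 129 CPM at rest, 178, 198 and 193 CPM with anti-IgM and 164, 175 and 149 CPM with LPS in WT cells, a rise of 1.51-fold (log2 0.60 ± 0.06, adjusted p = 3.09e-07) and 1.30-fold (adjusted p = 6.41e-05). Its paralog Atg2a fell 1.13-fold with anti-IgM (adjusted p = 0.0105) and was level with LPS, at a log2 fold change of 0.01 ± 0.05 (adjusted p = 0.920) in WT cells, while in Ubqln1-/- cells it was 0.10 (adjusted p = 0.109, or 0.0437 with the replicate block). Atg9a, the lipid scramblase that seeds the membrane, was at 53.6, 53.5 and 47.1 CPM at rest, 30.0, 30.9 and 29.7 CPM with anti-IgM and 28.5, 30.1 and 34.5 CPM with LPS. Resting Atg9a levels lay above all others, with falls of 1.70-fold (adjusted p = 2.71e-07) and 1.66-fold (adjusted p = 6.75e-07). The phosphoinositide reader Wipi2 fell 1.68-fold and 1.49-fold. Its relative Wipi1 was low, at 2.49, 1.40 and 1.74 CPM at rest, 0.359, 0.492 and 0.861 CPM with anti-IgM and 0.937, 0.839 and 1.58 CPM with LPS, and its fall with anti-IgM had the largest log2 fold change and the largest error of the members in WT cells (-1.72 ± 0.40, adjusted p = 0.00114). With LPS its log2 fold change of -0.74 had an adjusted p of 0.0781, or 0.0338 with the replicate block.

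The conjugation genes split. Atg3, the E2-like enzyme for ATG8 proteins, rose 1.18-fold with anti-IgM and 1.25-fold with LPS in WT cells, and Atg16l1, which places the E3-like complex on the membrane, rose 1.20-fold and 1.14-fold, although not past the threshold with LPS in Ubqln1-/- cells (adjusted p = 0.112, or 0.0342 with the replicate block). Atg16l2, a relative of Atg16l1, was at 135, 121 and 109 CPM at rest, 89.3, 75.9 and 60.5 CPM with anti-IgM and 85.6, 69.3 and 68.1 CPM with LPS. It fell in all stimulated libraries, by 1.62-fold (adjusted p = 0.000188) and 1.64-fold (adjusted p = 0.000165). Atg7, the E1-like enzyme at the head of both conjugation pathways, was at 21.4, 25.8 and 27.0 CPM at rest, 20.6, 21.7 and 21.3 CPM with anti-IgM and 14.2, 13.7 and 17.9 CPM with LPS. The Atg7 libraries with LPS lay below all others, a fall of 1.63-fold (adjusted p = 7.26e-05), and the fold change with anti-IgM was not called (log2 -0.23 ± 0.12, adjusted p = 0.101, or 0.0196 with the replicate block). Atg10, the E2-like enzyme for Atg12, fell from 4.35, 3.00 and 2.89 CPM to 1.88, 1.44 and 1.62 CPM with anti-IgM (2.05-fold, adjusted p = 0.000702) and to 2.03, 2.21 and 2.36 CPM with LPS (1.53-fold, adjusted p = 0.0195).

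Atg5 and Atg12, whose products are joined to each other, were near the call. Atg5 rose 1.15-fold with anti-IgM in WT cells (adjusted p = 0.00984), with a log2 fold change of 0.10 ± 0.06 in Ubqln1-/- cells (adjusted p = 0.181). Atg12 was not called in WT cells and fell 1.20-fold with anti-IgM and 1.17-fold with LPS in Ubqln1-/- cells. Among the ATG4 proteases, which trim ATG8 proteins and release them from lipid, Atg4d fell 1.11-fold with anti-IgM in each genotype, and Atg4b rose 1.10-fold with anti-IgM and 1.11-fold with LPS in Ubqln1-/- cells. The WT values of Atg4b, 1.09-fold and 1.05-fold, had adjusted p = 0.0610 and 0.284, the former 0.0292 with the replicate block. For Atg5, Atg12 and Atg4b the interaction of genotype and stimulus had an adjusted p of 1.

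In the ATG8 family, the ubiquitin-like proteins that coat the autophagosome, Gabarapl1 rose and Map1lc3a fell. Gabarapl1 was at 18.0, 20.5 and 18.2 CPM in resting WT cells, 48.1, 37.3 and 38.8 CPM with anti-IgM and 22.4, 23.2 and 26.9 CPM with LPS. It increased 2.19-fold with anti-IgM (log2 1.13 ± 0.12, adjusted p = 4.28e-07), the largest rise of the 40 members with anti-IgM, and 1.28-fold with LPS (adjusted p = 0.0190). In Ubqln1-/- cells it was at 20.3, 19.7 and 18.6 CPM, at 43.6, 33.0 and 41.3 CPM and at 24.1, 22.4 and 27.8 CPM, with rises of 2.01-fold and 1.26-fold. The Gabarapl1 call with LPS was lost without TMM scaling (edgeR adjusted p = 0.0737 in WT and 0.0853 in Ubqln1-/- cells). It was also lost with limma in Ubqln1-/- cells (adjusted p = 0.0522) and in some fits that left out a library. Map1lc3a (LC3A) was at 23.1, 23.1 and 20.4 CPM at rest, 12.6, 10.7 and 10.5 CPM with anti-IgM and 12.3, 10.1 and 12.5 CPM with LPS in WT cells. It fell 1.97-fold (adjusted p = 3.43e-06) and 1.91-fold (adjusted p = 6.59e-06), with no overlap of resting and stimulated libraries.

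Map1lc3b (LC3B), the form most used to follow autophagy, was at 56.9, 61.9 and 54.4 CPM at rest, 63.8, 57.6 and 55.7 CPM with anti-IgM and 41.7, 39.8 and 42.2 CPM with LPS. Only the LPS libraries stood apart, with a fall of 1.40-fold (adjusted p = 6.74e-06). Gabarap followed with 173, 193 and 168 CPM, 239, 193 and 177 CPM and 153, 136 and 145 CPM, a fall of 1.23-fold with LPS (adjusted p = 0.0123) and a log2 fold change of 0.19 ± 0.10 with anti-IgM (adjusted p = 0.0925, or 0.0375 with the replicate block). Gabarapl2, at 1.43 to 3.67 CPM in all libraries, fell 1.53-fold with anti-IgM and 1.40-fold with LPS. Per length, Gabarap made up 69.2% ± 0.373 of the ATG8 family RPKM in resting WT cells, 71.4% ± 1.40 with anti-IgM and 71.1% ± 1.27 with LPS, while Gabarapl1 went from 4.65% ± 0.128 to 9.25% ± 0.491 and 7.53% ± 0.763 and Map1lc3a from 9.29% ± 0.509 to 4.28% ± 0.169 and 6.14% ± 0.408.

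The cargo receptors differed among themselves. Optn (optineurin), a receptor for ubiquitinated cargo, was at 18.7, 14.8 and 18.3 CPM in resting WT cells, 29.1, 23.3 and 24.2 CPM with anti-IgM and 36.8, 36.8 and 40.5 CPM with LPS. It rose 1.48-fold (adjusted p = 0.000209) and 2.21-fold (log2 1.14 ± 0.11, adjusted p = 1.71e-07), and in Ubqln1-/- cells 1.28-fold and 2.25-fold. Sqstm1 was at 336, 405 and 402 CPM at rest, 387, 425 and 454 CPM with anti-IgM and 422, 531 and 581 CPM with LPS, where it rose 1.34-fold (adjusted p = 0.00184). The Sqstm1 libraries with anti-IgM overlapped the resting ones in WT cells (adjusted p = 0.221), and in Ubqln1-/- cells the log2 fold change of 0.20 had an adjusted p of 0.0934, or 0.0119 with the replicate block. Calcoco1, a receptor for portions of the endoplasmic reticulum, was at 137, 132 and 111 CPM at rest, 102, 78.7 and 66.3 CPM with anti-IgM and 68.2, 57.6 and 62.4 CPM with LPS. It fell 1.54-fold (adjusted p = 0.000346) and 2.02-fold (adjusted p = 3.05e-06), the latter the largest fall of any member with LPS in WT cells. Nbr1, a partner of p62, fell from 184, 167 and 165 CPM to 106, 102 and 92.7 CPM with anti-IgM (1.71-fold) and to 108, 107 and 106 CPM with LPS (1.61-fold).

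**Figure D3:**
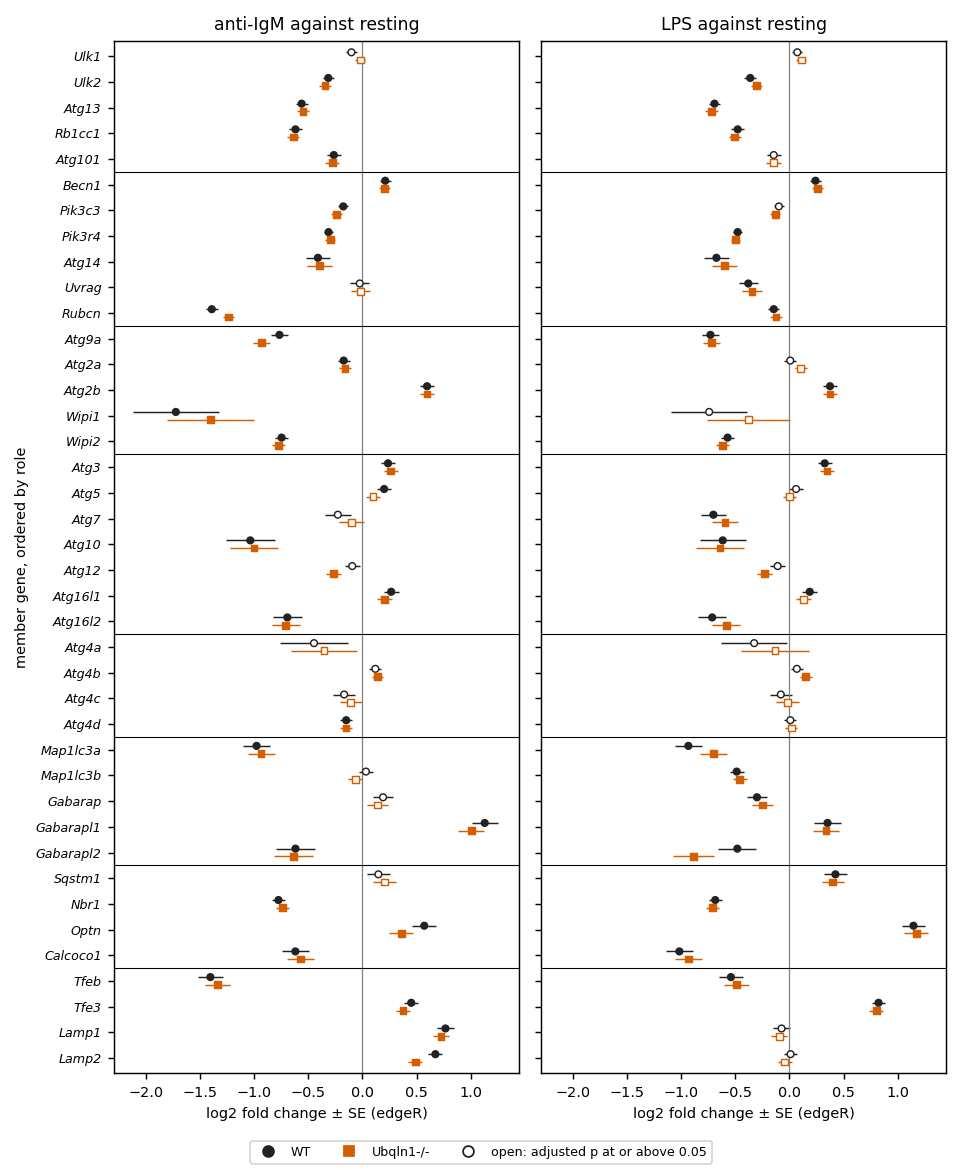
Log2 fold change against resting cells (horizontal axis, edgeR estimate with SE bars) of the 40 members ordered by role, with anti-IgM on the left and LPS on the right; circles are WT, squares are Ubqln1-/- and open symbols have an adjusted p of 0.05 or more. Circles and squares lie close together for most members, Rubcn lies at -1.39 and -1.24 with anti-IgM but at -0.14 and -0.12 with LPS, and Optn is farthest to the right with LPS at 1.14 and 1.17.

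Compared directly in WT cells, 9 members were higher and 10 lower with LPS than with anti-IgM, beside 17.4% and 15.0% of all genes, and in Ubqln1-/- cells 7 were higher and 11 lower, beside 16.8% and 14.5%. Without TMM scaling the WT split was 4 higher and 13 lower, so the count of members higher with LPS depended on the scaling. Rubcn was 2.37-fold higher with LPS than with anti-IgM in WT cells (log2 1.25 ± 0.05, adjusted p = 2.68e-11) and 2.16-fold higher in Ubqln1-/- cells (adjusted p = 1.29e-10). Tfeb was 1.82-fold and 1.80-fold higher, and Optn 1.49-fold and 1.76-fold. Every library with LPS lay above every library with anti-IgM for these 3 genes in each genotype. In the other direction Lamp1 was 1.79-fold and 1.76-fold lower with LPS (adjusted p = 1.60e-07 and 2.49e-07), Gabarapl1 1.71-fold and 1.59-fold lower, and Lamp2 1.58-fold and 1.45-fold lower. Fitted on the 6 WT libraries of these groups alone, 11 members were called instead of 19. Over all genes 3376 of 13716 were called there instead of 4590 of 14161. With the replicate block, Atg13 and Atg14 (lower with LPS) and Rb1cc1 and Wipi1 (higher) were added in WT cells, at adjusted p from 0.0176 to 0.0485, and Pik3c3, Atg9a, Wipi1, Wipi2 and Sqstm1 (higher) in Ubqln1-/- cells, at 0.00789 to 0.0482.

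The genes around these regulators were counted in 7 lists of 157 genes, of which 155 were tested. The V-ATPase, the proton pump that acidifies the lysosome, had 12 of 17 tested genes higher and 1 lower with anti-IgM in WT cells, and 0 higher and 8 lower with LPS. These are 70.6% and 5.88%, beside 32.4% and 32.2% of all genes, and 0% and 47.1%, beside 31.2% and 30.1%. With the replicate block 4 of them were higher with LPS. In the direct contrast, 14 of the 17 were lower with LPS than with anti-IgM, beside 15.0% of all genes. Atp6ap2, an accessory subunit, rose with anti-IgM (log2 1.17 ± 0.06, adjusted p = 1.84e-10). Tcirg1, the a3 subunit of the pump, was the exception among those that moved with anti-IgM (log2 -1.60 ± 0.175, adjusted p = 5.37e-07). The median log2 fold change of the list was 0.28 with anti-IgM and -0.17 with LPS.

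Of 36 lysosomal hydrolases, 30 fell and 0 rose with LPS in WT cells and 29 fell and 1 rose in Ubqln1-/- cells, where 30.1% and 30.2% of all genes fell. With the replicate block 1 and 2 rose. With anti-IgM, 11 rose and 16 fell in WT cells, 30.6% and 44.4%, beside 32.4% and 32.2% of all genes. Sgsh, a heparan sulfate sulfatase, had the largest fall with LPS by the naming rule (log2 -1.81 ± 0.14, adjusted p = 1.61e-08) and Gla (alpha-galactosidase A) the largest rise with anti-IgM (1.48 ± 0.205). Across 21 genes of lysosomal membrane and transport, 8 rose and 4 fell with anti-IgM, 38.1% and 19.0%, and 2 rose and 12 fell with LPS, 9.52% and 57.1%. Of all genes, 32.4% rose and 32.2% fell with anti-IgM and 31.2% rose and 30.1% fell with LPS. Cd63, a tetraspanin of late endosomes, rose with anti-IgM by 2.32 ± 0.17 on the log2 scale (adjusted p = 8.37e-09), the two-pore channel gene Tpcn1 fell by 2.10, and the cation channel gene Mcoln2 fell by 1.46 with LPS. Summed macrophage and monocyte markers lay at 28.9 to 53.9 CPM at rest and at 15.6 to 24.8 CPM with a stimulus. In WT means Adgre1 carried most of that fall, from 21.9 CPM to 6.81 with anti-IgM and 9.68 with LPS. Lyz2, Csf1r and Itgam also fell. Spic rose with LPS, from 1.67 to 3.50 CPM, and Vcam1 and Cd14, at 1.13 CPM or less, were higher with each stimulus. The part of these markers in the falls of lysosomal genes was not tested.

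Among 34 genes of mTORC1 and lysosomal nutrient sensing, 13 rose and 12 fell with anti-IgM and 6 rose and 16 fell with LPS in WT cells. The shares with anti-IgM, 38.2% and 35.3%, were near the 32.4% and 32.2% of all genes, and those with LPS were 17.6% and 47.1%, beside 31.2% and 30.1%. Rragd, a Rag GTPase, rose with anti-IgM (log2 2.69 ± 0.24, adjusted p = 5.24e-08), and Sesn1, a leucine-sensing inhibitor of the pathway, fell (-1.42 ± 0.07). Its paralog Sesn2 rose with LPS (1.43 ± 0.24, adjusted p = 7.22e-05) and the mTOR inhibitor Deptor fell (-1.22 ± 0.33). The Deptor, Sesn1 and Sesn2 changes had the same sign in Ubqln1-/- cells, at -1.16, -1.32 and 1.42. Of 16 fusion genes, 4 rose and 5 fell with anti-IgM (25.0% and 31.2%, near the share of all genes) and 3 rose and 7 fell with LPS (18.8% and 43.8%), with the lysosomal GTPase Arl8b higher (0.88 ± 0.06 and 0.63 ± 0.06) and the autophagosomal SNARE Stx17 lower with anti-IgM (-1.23 ± 0.10). Of 19 other autophagy factors, 6 rose and 8 fell with anti-IgM (31.6% and 42.1%) and 4 rose and 7 fell with LPS (21.1% and 36.8%), where 7 rose with the replicate block. Of 12 other cargo and mitophagy receptors 3 rose and 6 fell with anti-IgM (25.0% and 50.0%) and 4 rose and 6 fell with LPS (33.3% and 50.0%). For each of these lists the shares of all genes were 32.4% and 32.2% with anti-IgM and 31.2% and 30.1% with LPS. Ddit3 and Atf4, stress transcription factors, were each called higher with both stimuli in both genotypes. In WT cells Ddit3 rose by 1.29 ± 0.12 with anti-IgM and Atf4 by 1.05 ± 0.11 with LPS. With anti-IgM, Bcl2, which binds Beclin 1, fell by 1.48 and the mitophagy kinase gene Pink1 fell by 1.13.

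**Figure D4:**
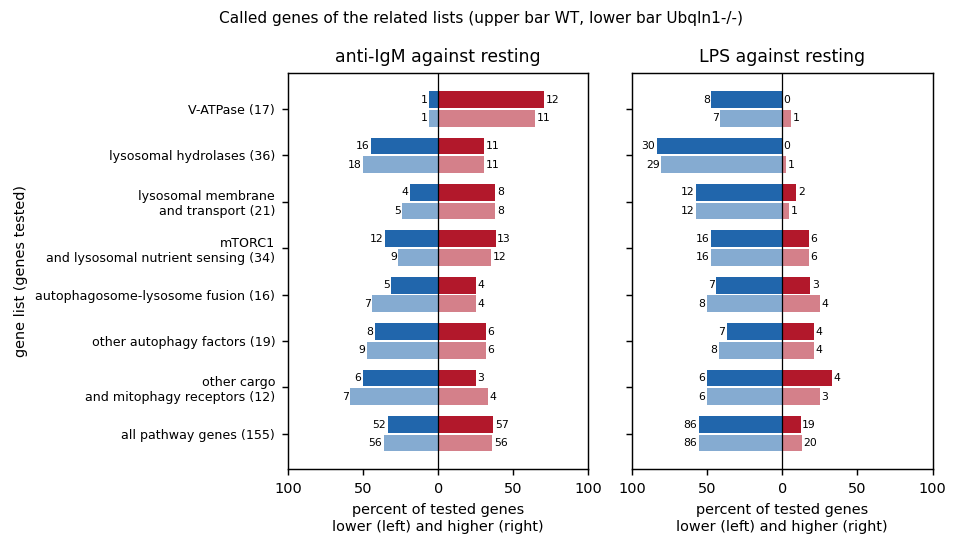
Share of the tested genes of each related list (horizontal axis, percent) that were called lower (blue, to the left) or higher (red, to the right) against resting cells, with the number of genes at the end of each bar; dark upper bars are WT and pale lower bars Ubqln1-/-. The V-ATPase list has 12 genes to the right with anti-IgM and 8 to the left with LPS in WT cells, and the hydrolase list has 30 to the left with LPS.

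Loss of ubiquilin-1 left the mRNA of 39 of the 40 members without a called difference in any condition. In resting cells 0 of 40 members were called, beside 0.0565% of all genes, after anti-IgM 1 of 40, beside 0.0989%, and after LPS 0 of 40, beside 0.0424%. At an unadjusted p under 0.05, edgeR had 1, 4 and 3 members and 597, 728 and 557 of all genes in the 3 conditions, and limma and DESeq2 each called 0, 1 and 0 members. The 95% confidence interval of the difference lay within 0.5 on the log2 scale, in either direction, for 38 members at rest, 36 after anti-IgM and 35 after LPS. The wider intervals belonged to Atg4a and Wipi1 in all 3 conditions, to Atg10 and Optn after anti-IgM and to Atg10, Gabarapl2 and Map1lc3a after LPS. With the replicate block, 0, 1 and 0 members were called at rest, after anti-IgM and after LPS, beside 49, 94 and 125 of all genes.

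The member called was Rubcn, which was 1.22-fold higher in Ubqln1-/- cells after anti-IgM (log2 0.29 ± 0.05, 95% interval 0.18 to 0.40, adjusted p = 0.0399). Its 188, 200 and 187 CPM lay above the 157, 160 and 153 CPM of WT cells. The difference was 0.14 ± 0.05 at rest (adjusted p = 0.962) and 0.16 ± 0.05 after LPS (adjusted p = 0.713). After LPS the groups did not overlap, and in resting cells 1 library of Ubqln1-/- (423 CPM) lay just under the highest of WT (424 CPM). The log2 fold change after anti-IgM stayed between 0.261 and 0.312 in 14 refits, with adjusted p from 3.98e-05 (DESeq2) to 0.352, and 0.00386 with the replicate block. The call was lost in 9 of them, in each of the 6 that left out a library of this comparison (adjusted p from 0.127 to 0.278), with RLE factors (0.0525), without the filter (0.0670) and with only the groups compared (0.352).

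The members next in order did not pass. After anti-IgM, Optn was at 24.0, 19.6 and 19.1 CPM in Ubqln1-/- against 29.1, 23.3 and 24.2 CPM in WT cells (log2 -0.29 ± 0.11, adjusted p = 0.747). Lamp2 was at 166, 146 and 149 CPM against 191, 161 and 164 CPM (-0.16 ± 0.06, adjusted p = 0.813). The groups overlapped for both genes, with the Ubqln1-/- library the lower in each of the 3 same-numbered pairs, and the replicate block gave adjusted p of 0.153 and 0.234. After LPS, Gabarapl2 was at 1.96, 1.58 and 1.43 CPM against 2.23, 1.96 and 2.61 CPM (-0.45 ± 0.19, adjusted p = 1) and Atg4c at 8.91, 11.5 and 9.99 CPM against 8.56, 8.21 and 9.41 CPM (0.22 ± 0.10, adjusted p = 1). The groups met at 1.96 CPM for Gabarapl2 and overlapped for Atg4c. In each of the 3 same-numbered pairs the Ubqln1-/- library was the lower for Gabarapl2 and the higher for Atg4c. Neither gene was called with the replicate block. At rest, Atg14 differed by -0.21 ± 0.11 and Atg4b by -0.09 ± 0.05, each with an adjusted p of 1.

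The interaction terms asked whether a stimulus acted differently in Ubqln1-/- cells. No member was called for anti-IgM or LPS, and 0% of all genes were called by edgeR in either interaction, where 140 and 220 genes, among them 0 members, had an unadjusted p under 0.05. DESeq2 and limma called 0 members in each. The smallest p among the members were those of Rubcn for anti-IgM (interaction 0.15 ± 0.07 on the log2 scale, 95% interval 0 to 0.31, adjusted p = 1) and Gabarapl2 for LPS (-0.40 ± 0.26, 95% interval -0.95 to 0.14, adjusted p = 1). The call with anti-IgM was the same in both genotypes for 37 members and that with LPS for 36, and 0 members were called in opposite directions. This agreement was not counted over all genes, so it is not shown to be particular to the members.

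**Figure D5:**
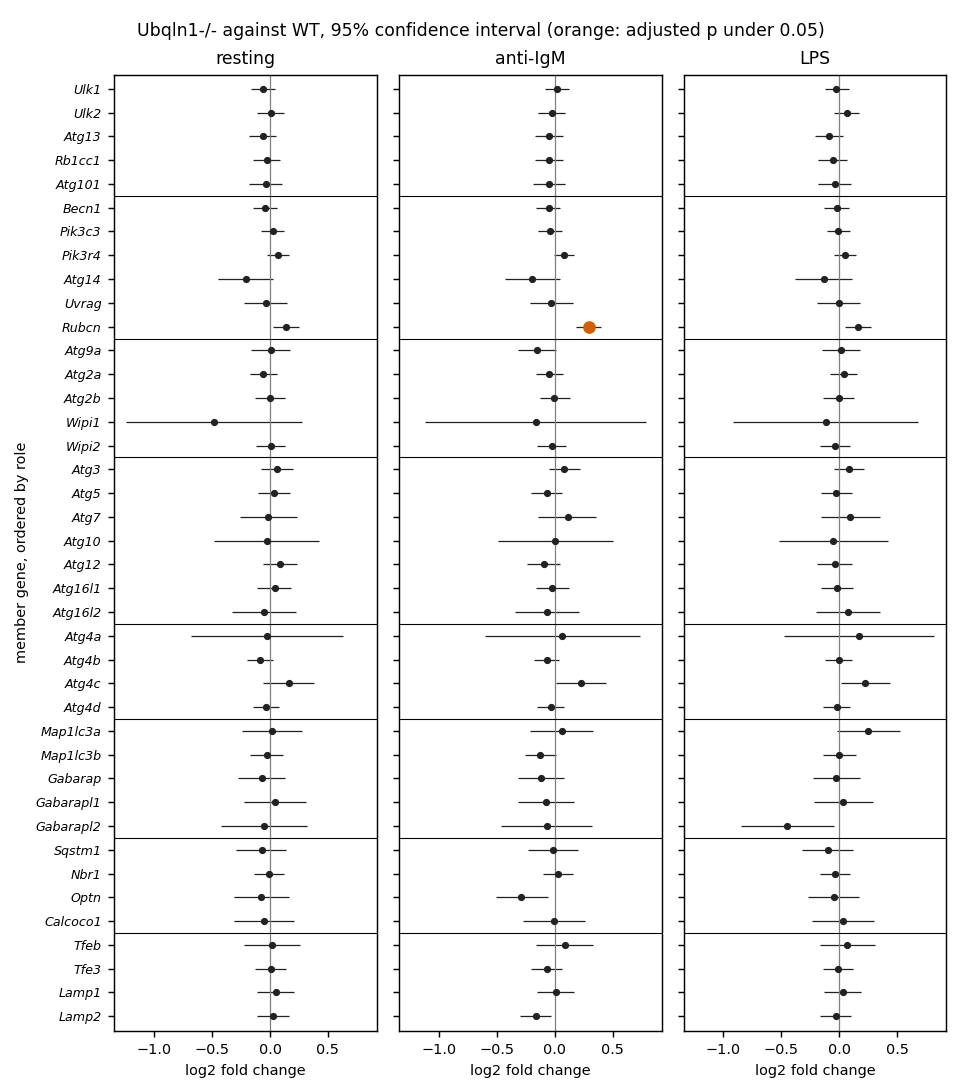
Log2 fold change of Ubqln1-/- against WT (horizontal axis) for the 40 members in resting cells, after anti-IgM and after LPS; points are edgeR estimates, lines are 95% confidence intervals and the large orange point is the member with an adjusted p under 0.05. Rubcn after anti-IgM, at 0.29, is the orange point, and the longest lines are those of Wipi1 and Atg4a.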

How the data were processed

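Libraries were made from polyA RNA with a TruSeq v2 kit, which does not mark strand, and sequenced as single 50 bp reads. GSNAP served as the authors' aligner, on GRCm38, and their processing notes also name limma and R 3.2.2. The counting program and annotation release are not given in the sources used here. The deposited files hold raw exonic counts per gene, the gene's width in bases and the authors' RPKM, which divides by a library total of which the gene counts are 83.76% to 88.35%. RefSeq named 25035 of the 28096 genes. Titles number all but the replicate 1 library of each group, which was named by elimination.

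Counts were fitted with edgeR 4.0.16 in R 4.3.3: TMM factors (0.958 to 1.038), the edgeR expression filter, and the quasi-likelihood test over all 18 libraries with 1 term per group. The biological coefficient of variation was 10.1%. The SE is the fold change divided by the root of F. limma 3.58.1 with voom, DESeq2 1.42.0, RLE or no scaling factors, other filters and thresholds, a replicate block, fits of the compared groups alone and fits without each library were alternatives. The fit was tested on simulated data. CPM and RPKM levels used TMM-scaled library sizes. The 40 members and the related lists were chosen with earlier results of these data known. Members given in full were, for each stimulus, up to 5 per direction with the largest WT change that were called and did not overlap in both genotypes at 1 CPM or more, the 3 per direction for LPS against anti-IgM, those called or with the smallest p between genotypes or in the interactions, the 3 highest and lowest levels and the ATG8 family; others are given by role. In each related list the largest changes are named by the same rule, of which some are not reported here. Protein sequences were not used here. The study describes its RNASeq as 3 independent experiments, so p-values measure the spread between experiments; whether each used separate mice is not given in the sources used here. Same-numbered libraries deviated together: in all 6 comparisons of stimuli and in Ubqln1-/- against WT after anti-IgM and after LPS, each of the 3 same-numbered pairs correlated at over 0.1 (lowest 0.205), and the numbers were taken to pair the libraries there, from the data and not from the labels. In resting cells 2 of 3 pairs did (lowest 0.0826). This reading of the pairs was settled after the calls of both fits were known. Calls, shares and figures are those of the fit without the replicate block, unless the block is named.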

Additional observations from a re-analysis of the deposited data

How the results depend on the processing

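The counts of members called with anti-IgM were 29 to 31 in WT and 28 to 30 in Ubqln1-/- cells when each library was left out, those with LPS 24 to 27 and 24 to 28, and those for LPS against anti-IgM 15 to 18 and 14 to 17. Ubqln1-/- against WT gave 0 to 0 members at rest, after anti-IgM and after LPS, and so did the interactions, so that the 1 member called after anti-IgM was lost without each library. That count was also 0 with RLE factors, without the filter and with only the groups compared. In the last setting the contrast of LPS with anti-IgM in WT gave 11 members and 3376 of 13716 genes. At an absolute log2 fold change over 1, the counts in WT and Ubqln1-/- cells were 5 and 5 with anti-IgM. They were 2 and 1 with LPS, 1 and 1 for LPS against anti-IgM, and 0 between genotypes after anti-IgM. Over all genes the counts were 2921 and 2874, 2234 and 2257, 1334 and 1236, and 2, in the same order. At the study's thresholds (over 2, adjusted p under 0.001) no member was called in any comparison. The comparisons of stimuli then called 247 to 532 of all genes. Without TMM factors, members higher and lower for LPS against anti-IgM in WT were 4 and 13 in place of 9 and 10. Same-numbered libraries deviated together (mean r 0.266 over 45 pairs, lowest 0.055, 43 over 0.1; all 18 libraries closest to their own number). With the replicate block, 34 and 32 members were called with anti-IgM, 30 and 33 with LPS and 23 and 23 for LPS against anti-IgM. Calls over all genes rose as well, from 9146 to 9905 and from 9251 to 10010 with anti-IgM. With LPS they rose from 8673 to 9625 and from 8599 to 9480. For LPS against anti-IgM they rose from 4590 to 6055 and from 4437 to 5924. Between genotypes 0, 1 and 0 members were called, with 49, 94 and 125 in place of 8, 14 and 6 of all genes. The block added member calls in the 6 comparisons of stimuli, each given beside its gene, and changed no other call of a member. Of 1306 refits of 91 fold changes of named members, 1259 kept direction and side of the threshold, 35 lost the call, 7 gained it and 5 changed sign; the cause was not tested. The gains were Gabarap with anti-IgM in WT (3), Sqstm1 with anti-IgM in Ubqln1-/- cells (2) and Wipi1 with LPS in WT (2). Those that changed sign were not called, each when a library was left out: Map1lc3b with anti-IgM in WT (-0.008 and -0.020 without WT resting replicate 3 and WT anti-IgM replicate 1, range to 0.097), Atg4a with LPS in Ubqln1-/- cells (0.148 and 0.077 without resting and LPS replicate 3, range from -0.326) and Wipi1 there (0.024 without LPS replicate 2, range from -0.637). Of the calls lost, 9 were Rubcn between genotypes, 1 was Optn with anti-IgM in Ubqln1-/- cells and the others were Gabarapl1, Gabarap, Gabarapl2 and Atg10 with LPS. The deposited RPKM were 0.835 to 0.892 times the RPKM used here, by their larger library total.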
